A study of Homo sapiens with 9 samples.

Results

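A549 cells carrying the *LOC388942-ALK* fusion (LA cells) were compared with LA cells that also carried a scramble guide RNA (sgScr). The comparison took in every autosomal gene of the deposited count table, 23535 of 26364 gene names, in 3 sgScr libraries and 2 LA libraries out of 9 libraries in the series. Of these genes, 13781 had enough reads to be tested. A549 is a human lung adenocarcinoma cell line. The study cut within *ALK* and in the intergenic region that lies between *SLC8A1* and *LOC388942*, in A549 cells that express the Cas9 nuclease, to join the ends into a fusion, and measured RNA by bulk sequencing. The LA libraries are labelled with the guides sgLOC388942 and sgALK, and the sgScr libraries with both of these plus sgScr. The sgFOS libraries (n = 2) carry a guide against *FOS* in place of the scramble guide, and the Control libraries (n = 2) are labelled wild type. The study methods describe selection of single clones by limiting dilution. The sources used here do not say whether the sgScr cells were made from the same clone, passage or culture as the LA libraries, nor whether libraries of a group came from separate cultures. The p-values therefore measure only the spread between these libraries, and the added guide cannot be told apart from clone, passage, culture or sequencing occasion.

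A scramble guide is designed to match no site in the genome, so such cells serve as the reference for cells that carry a targeting guide. The ALK receptor tyrosine kinase is silent in most adult tissues, and a fusion that places it under another promoter can drive the RAS-MAPK pathway, whose output includes the AP-1 transcription factors FOS and JUN. Transcription of interferon-stimulated genes is set by STAT and IRF factors, which bind short repeated TTTC elements in their promoters.

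The libraries held 14507228 to 20456341 counted reads. LA replicates 1 and 2 had 15239641 and 16700440 reads, and sgScr replicates 1, 2 and 3 had 20456341, 20189606 and 17222113. Levels are given as CPM, read counts scaled to a common library total and adjusted by the trimmed mean of M-values over all 9 libraries. Over 11372 genes averaging 50 counts or more, the median absolute log2 ratio between the LA replicates was 0.306. Between pairs of sgScr replicates it was 0.0616 to 0.0741. LA replicate 1 lay 0.252 to 0.267 from the sgScr libraries, closer than to its own replicate, and LA replicate 2 lay 0.361 to 0.37 from them. The sgScr libraries lay 0.115 to 0.128 from the sgFOS libraries. The biological coefficient of variation was 0.279 within LA and 0.0308 within sgScr, so the spread that each test rests on came mostly from the LA pair.

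**Figure D1:**
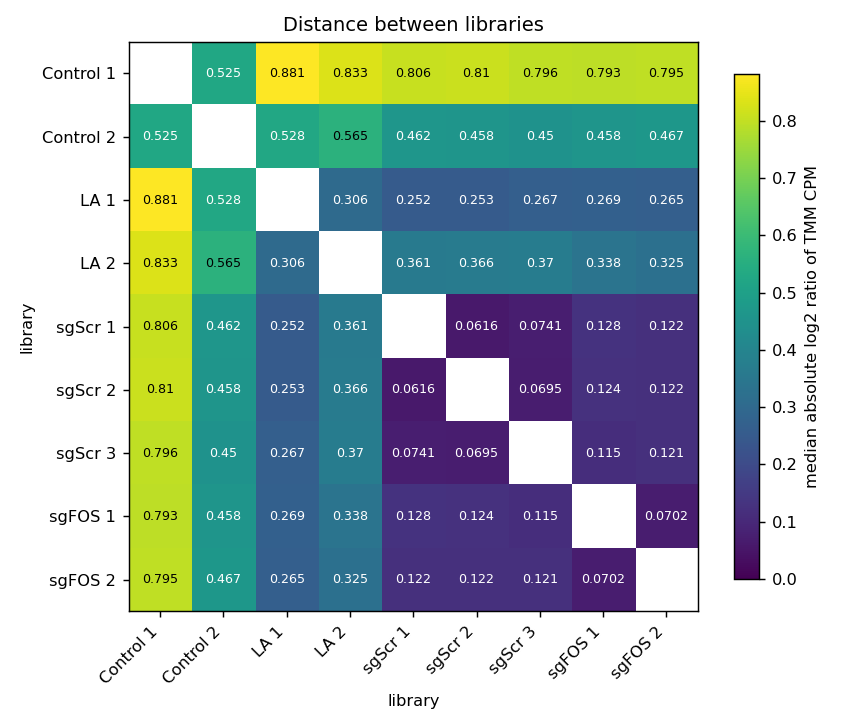
Median absolute log2 ratio of CPM between each pair of the 9 libraries (both axes, libraries by group and replicate; colour and printed value, log2 units). The sgScr pairs sit at 0.0616 to 0.0741, whereas the LA pair sits at 0.306, above the distance from LA replicate 1 to each sgScr library.

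The A549 epithelial markers were present in every library, with a summed level of 25325 and 33050 CPM in LA and 23963 to 24888 CPM in sgScr. Of 11 tested, 2 were higher and 2 lower in sgScr, 36.4% called beside 22.9% of all genes. Values in parentheses after a gene name, here and in what follows, are log2 fold changes of sgScr over LA. *EPCAM*, an epithelial adhesion protein, was at 3.01 and 4.69 CPM in LA and 13.1, 11.2 and 9.48 CPM in sgScr (log2 fold change 1.52, SE 0.26, edgeR adjusted p = 0.0131). The sgScr libraries were all above both LA libraries. *CDH1*, which encodes E-cadherin, was lower (log2 fold change -0.55), as was *AKR1C1*, an aldo-keto reductase (-1.23). Fibroblast markers summed to 24.6 and 24.8 CPM in LA and 18.1 to 19.3 CPM in sgScr, with *COL1A2*, *FAP* and *POSTN* at 0 counts. Of 5 tested, *COL1A1* was lower (-1.18). Leukocyte markers summed to 40.4 and 41.8 CPM in LA and 38.5 to 40.3 CPM in sgScr, with *PTPRC*, *CD3E*, *CD3D* and *MS4A1* at 0 counts. Of 3 tested, *CD14* was lower (-0.77). Endothelial markers summed to at most 5.48 CPM in these groups and the 1 tested was not called. Neural and HEK293-type markers summed to 654 and 480 CPM in LA and 556 to 584 CPM in sgScr, and of 5 tested the neurofilament gene *NEFL* was higher (2.09). The part of these marker values in the results was not tested. In bulk samples, fewer cells of a type and less RNA per cell cannot be told apart.

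The genes of the fusion were barely counted. *ALK* (chromosome 2, 29415640 to 30144452, GRCh37, minus strand) had 2 and 15 reads in LA, 4, 1 and 3 in sgScr, 2 and 0 in sgFOS and 0 and 0 in Control, too few to test. *LOC388942* (chromosome 2, 42087295 to 42121190) had 0 and 1 reads in LA and 7, 11 and 6 in sgScr. After scaling for depth that is a ratio of 13.9 (2.27 to 572), where the 95% interval covers counting error only, and Control held 8 and 2 reads. Since Control held about as many *LOC388942* reads as sgScr, and few *ALK* reads were found in any fusion library, these counts do not check the fusion. *SLC8A1*, a sodium-calcium exchanger gene that also lies on 2p, had 21 and 20 reads in LA and 35, 38 and 24 in sgScr (log2 fold change 0.42, SE 0.30, edgeR adjusted p = 0.335). *FOS* (chromosome 14, 75745529 to 75748933) was at 334 and 92.8 CPM in LA and 199.7, 196 and 203 CPM in sgScr. The sgScr values lay between the LA values (log2 fold change -0.12, SE 0.47, edgeR adjusted p = 0.873). In sgFOS it was at 68.3 and 74.1 CPM and in Control at 10.8 and 9.14 CPM. The LA replicates thus lay on either side of sgScr, and both lay above sgFOS. Without LA replicate 1 the *FOS* log2 fold change was 1.10, without LA replicate 2 it was -0.76, and over the alternatives that left out no library it ran from -0.20 to 0.17.

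Of the 13781 genes, 3151 (22.9%) were called at a Benjamini-Hochberg adjusted p under 0.05 in the edgeR quasi-likelihood test, 1441 (10.5%) higher and 1710 (12.4%) lower in sgScr. Large differences were mostly lower: among called genes past a doubling, 347 were higher and 836 lower, 1183 in all (8.58%). A log2 fold change beyond 2 was seen in 389 called genes (2.82%) and beyond 3 in 141 (1.02%). In 7797 genes (56.6%) the groups did not overlap, 4053 with all sgScr libraries above (29.4%) and 3744 with all below (27.2%). All 3151 called genes were among them, so a lack of overlap in a called gene is not added support. In 3077 of the 3151 called genes the difference between groups exceeded the gap between the LA replicates. Across all tested genes that held for 6554 (47.6%), and the median gap within LA was 0.313 log2 units, beside 0.132 for the range of the sgScr libraries. The calls rest mostly on the spread of the LA pair, so the share of called genes that exceed its gap is not separate support. The cutoffs of the study were an unadjusted p below 0.05 and a log2 difference of more than 0.5 either way, used with DESeq2. Applied here to the edgeR fit, they passed 3532 genes (25.6%), 1459 higher (10.6%) and 2073 lower (15.0%).

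**Figure D2:**
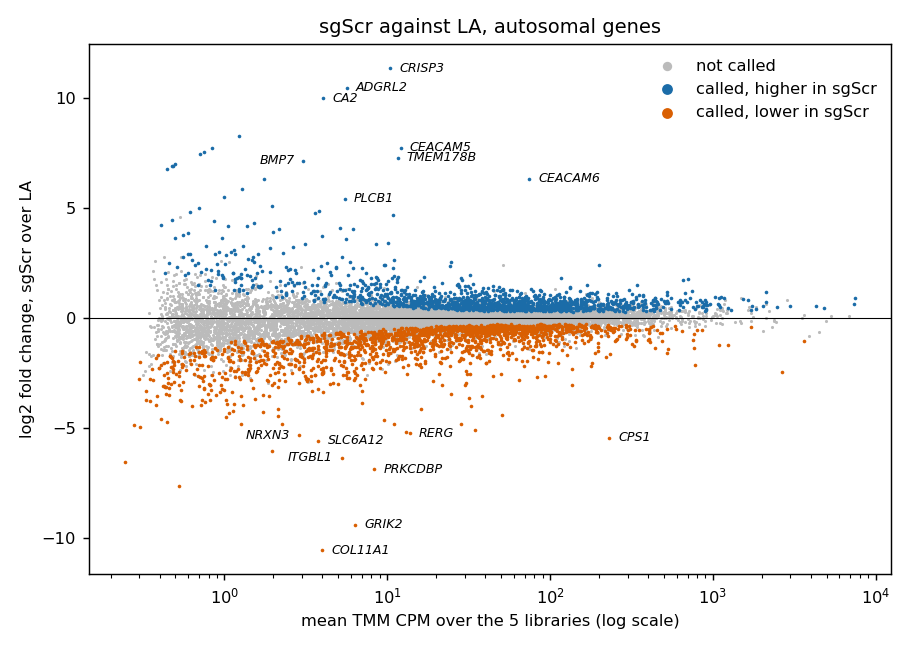
Log2 fold change of sgScr over LA (vertical axis) against the mean CPM over the 5 libraries (horizontal axis, log scale) for 13781 autosomal genes, each point a gene, coloured where called. The 1441 genes higher and 1710 lower in sgScr lie at all levels, with *CRISP3* and *COL11A1* at the extremes.

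The counts rest on the LA pair and on how its spread is pooled. The edgeR fit takes a single spread for both groups, and in simulated counts with a separate spread for each group its share of false calls was above the nominal level and fewer true doublings were found. With a weight for each group (limma voom), 684 genes were higher and 1026 lower. Leaving out sgScr replicate 1, 2 or 3 left 195, 177 or 148 genes higher and 289, 236 or 204 lower. Leaving out LA replicate 1 gave 4683 higher and 4737 lower, and leaving out LA replicate 2 gave 3550 and 3687, where the lone LA library is assumed to vary as little as the sgScr group. A fit to all 9 libraries called 526 higher and 831 lower, of which 517 and 813 were also called above. The 114 named genes include some that had no call to lose, such as *FOS*. When an sgScr library was left out, 48 to 58 of the 114 lost their call. Set beside this, 3094 of 13482 autosomal genes were called between sgFOS and sgScr (22.9%), a comparison that shares the sgScr libraries, but 120 of them were past a doubling (0.89%). Among genes averaging 50 counts or more, the median absolute log2 fold change was 0.282 for sgScr over LA, 0.111 for sgFOS over sgScr and 0.686 for LA over Control.

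Several genes were near silent in 1 group and plainly expressed in the other, and they were found by a rule on counts (at most 3 reads in each library of a group, at least 50 in each of the other), so they are described without support from their tests. *CRISP3* (chromosome 6, 49695089 to 49712150), a cysteine-rich secretory protein gene, was at 0 and 0 CPM in LA and 18.2, 17.7 and 16.4 CPM in sgScr, at least 99.2-fold higher in sgScr. It stood at 16.3 and 16.2 CPM in sgFOS and 0.0646 and 0 CPM in Control. *ADGRL2* (chromosome 1, 81771832 to 82459616), an adhesion G protein-coupled receptor gene, was at 0 and 0 CPM in LA and 9.61, 9.57 and 9.07 CPM in sgScr, at least 53.5-fold higher, and at 9.88 and 20.1 CPM in Control. It was thus absent from both LA libraries among the 9, all others holding it. *CA2* (chromosome 8, 86376197 to 86393722), a carbonic anhydrase gene, was at 0 and 0 CPM in LA and 6.14, 6.71 and 7.35 CPM in sgScr, at least 38.3-fold higher. The carcinoembryonic antigen gene *CEACAM5* (chromosome 19, 42212504 to 42234353) had 2 and 1 reads in LA and 405, 417 and 362 in sgScr, a depth-scaled ratio of 229 (78.0 to 1110.0). *TMEM178B* (chromosome 7, 140773864 to 141180180) had a ratio of 164 (63.8 to 603) and *BMP7* (chromosome 20, 55743809 to 55841697), a ligand of the TGF-beta superfamily, of 171 (30.5 to 6790.0).

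In the opposite direction, *COL11A1* (chromosome 1, 103342023 to 103574428), a fibrillar collagen chain, was at 7.98 and 11.9 CPM in LA and 0, 0 and 0 CPM in sgScr, at least 64.7-fold higher in LA, and at 2.0 and 2.65 CPM in Control. *GRIK2* (chromosome 6, 101410577 to 102529497), a kainate-type glutamate receptor subunit, was at 22.1 and 9.56 CPM in LA and 0.0476, 0 and 0 CPM in sgScr, a ratio of 917 (164 to 36300.0) in favour of LA.

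Among other genes with the largest fold changes and no overlap between groups, *CEACAM6* (chromosome 19, 42254885 to 42276116), a cell-surface adhesion gene, was at 0 and 2.96 CPM in LA and 121, 125 and 125 CPM in sgScr (log2 fold change 6.31, SE 0.77, edgeR adjusted p = 0.00535). All sgScr libraries lay far above both LA libraries, and Control lay between at 19.6 and 42.0 CPM. *PLCB1* (chromosome 20, 8057898 to 8949007), a phospholipase C gene, was also higher (log2 fold change 5.40, SE 0.32, edgeR adjusted p = 0.000971). The urea cycle enzyme gene *CPS1* (chromosome 2, 211342406 to 211543831) was the most abundant of these, at 699 and 416 CPM in LA and 12.4, 13.1 and 13.0 CPM in sgScr (log2 fold change -5.46, SE 0.24, edgeR adjusted p = 0.000352). Both LA libraries were high, and sgScr, sgFOS (9.96 and 9.78 CPM) and Control (38.4 and 51.0 CPM) all lay lower. Also lower in sgScr were *PRKCDBP*, which encodes a caveolar protein (log2 fold change -6.89), *ITGBL1*, integrin beta-like (-6.37), the betaine transporter gene *SLC6A12* (-5.59), the synaptic adhesion gene *NRXN3* (-5.33) and the Ras-like GTPase gene *RERG* (-5.24). Fitted folds of genes near 0 depend on the prior count of the fit.

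**Figure D3:**
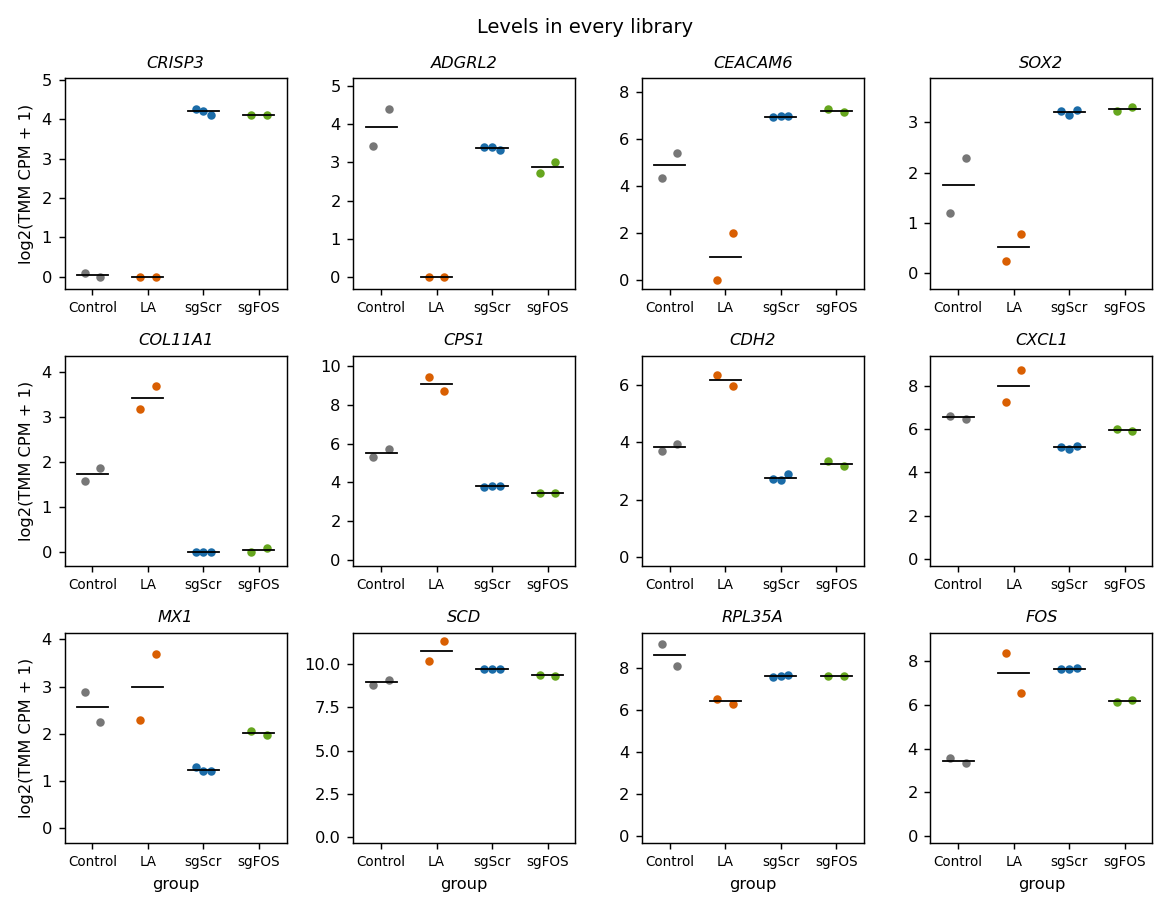
Level of 12 genes as log2(CPM + 1) (vertical axis) in the Control, LA, sgScr and sgFOS libraries (horizontal axis), each point a library and each bar the group mean. The sgScr points lie closely together in each panel, while LA holds 0 CPM of *CRISP3* and *ADGRL2* and 699 and 416 CPM of *CPS1*.

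Interferon-stimulated genes were mostly lower in sgScr. Of 38 tested, 28 were lower and 1 was higher in sgScr, beside 12.4% lower among all genes. The median log2 fold change of the list was -1.38 (all genes, -0.016), and in 31 of the 38 every sgScr library lay below both LA libraries (27.2% of all genes). The median was the lowest of the lists in this fit, but with a filter of 50 mean counts that of cytokines and chemokines was lower (-1.35 against -1.18). The summed level of the list differed less, at 1077 and 1121 CPM in LA, 885 to 891 CPM in sgScr and 740 and 771 CPM in Control. The promoters of 3 antiviral members, *MX1*, *ISG15* and *IFIT1*, are shown because they hold the paired TTTC motif that interferon-regulated factors recognise. The 250 bases before each gene start are from RefSeq (GRCh38.p14, written 5′ to 3′ along the gene strand), with the motif in capitals: TTTC, any pair of bases, then TTTC, searched on both strands, where matches may overlap.
MX1, chr21:41431800-41432049, plus strand: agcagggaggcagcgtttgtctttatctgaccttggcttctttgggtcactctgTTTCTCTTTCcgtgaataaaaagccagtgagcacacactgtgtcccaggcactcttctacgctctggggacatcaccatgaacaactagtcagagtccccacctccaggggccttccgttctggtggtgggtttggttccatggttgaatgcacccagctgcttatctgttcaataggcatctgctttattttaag
ISG15, chr1:1013247-1013496, plus strand: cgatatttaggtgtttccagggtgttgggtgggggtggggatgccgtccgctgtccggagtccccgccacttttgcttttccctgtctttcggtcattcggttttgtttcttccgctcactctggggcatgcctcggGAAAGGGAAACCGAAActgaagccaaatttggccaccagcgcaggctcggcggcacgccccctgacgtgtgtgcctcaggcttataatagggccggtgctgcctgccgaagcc
IFIT1, chr10:89392373-89392622, plus strand: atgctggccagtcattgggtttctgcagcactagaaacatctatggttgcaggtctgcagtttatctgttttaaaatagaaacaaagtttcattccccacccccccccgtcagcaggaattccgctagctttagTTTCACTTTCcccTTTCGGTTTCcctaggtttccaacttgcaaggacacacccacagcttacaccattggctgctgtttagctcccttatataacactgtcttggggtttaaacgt
The letters of that motif occurred in 22 of the 35 promoters found for the list (62.9%), in 12 of the 21 found for members lower in sgScr (57.1%), and in 1014 of 27305 promoters in all (3.71%). A match to these letters is a description, not a site of binding.

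*MX1*, which encodes an antiviral GTPase, was at 3.87 and 11.9 CPM in LA and 1.47, 1.31 and 1.32 CPM in sgScr (log2 fold change -2.54, SE 0.48, edgeR adjusted p = 0.0176). *IFI16*, a sensor of DNA, was at 9.45 and 10.0 CPM in LA and 1.43, 1.12 and 1.26 CPM in sgScr (log2 fold change -2.95, SE 0.20, edgeR adjusted p = 0.00144). *TRIM22*, an antiviral ubiquitin ligase gene, was at 3.13 and 9.67 CPM in LA and 0.856, 1.02 and 1.09 CPM in sgScr (log2 fold change -2.72, SE 0.50, edgeR adjusted p = 0.0164). In all 3 genes the sgScr libraries were the lowest of the fusion groups and did not overlap LA, and LA replicate 2 was higher than LA replicate 1. *DDX58*, which encodes the RNA sensor RIG-I, was at 23.5 and 26.2 CPM in LA and 6.04, 6.27 and 4.71 CPM in sgScr (log2 fold change -2.15, SE 0.16, edgeR adjusted p = 0.00178), with LA replicates close together. *IFIT1*, an inhibitor of translation of viral RNA, was at 8.17 and 13.3 CPM in LA and 3.28, 3.5 and 3.1 CPM in sgScr (log2 fold change -1.72, SE 0.25, edgeR adjusted p = 0.00806), and *ISG15*, a ubiquitin-like protein, at 5.59 and 7.71 CPM in LA and 2.43, 1.17 and 1.9 CPM in sgScr (log2 fold change -1.88, SE 0.34, edgeR adjusted p = 0.0151). *EIF2AK2*, which encodes the kinase PKR, was the member that was higher (log2 fold change 0.38). The transcription factor *STAT2* was not called (-0.12). In sgFOS, *DDX58* stood at 8.88 and 9.71 CPM and *MX1* at 3.19 and 2.93 CPM, and Control held 6.4 and 3.78 CPM of *MX1*. In other alternatives 22 to 31 members were lower, and 8 to 35 when a library was left out, fewest without an sgScr library.

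**Figure D4:**
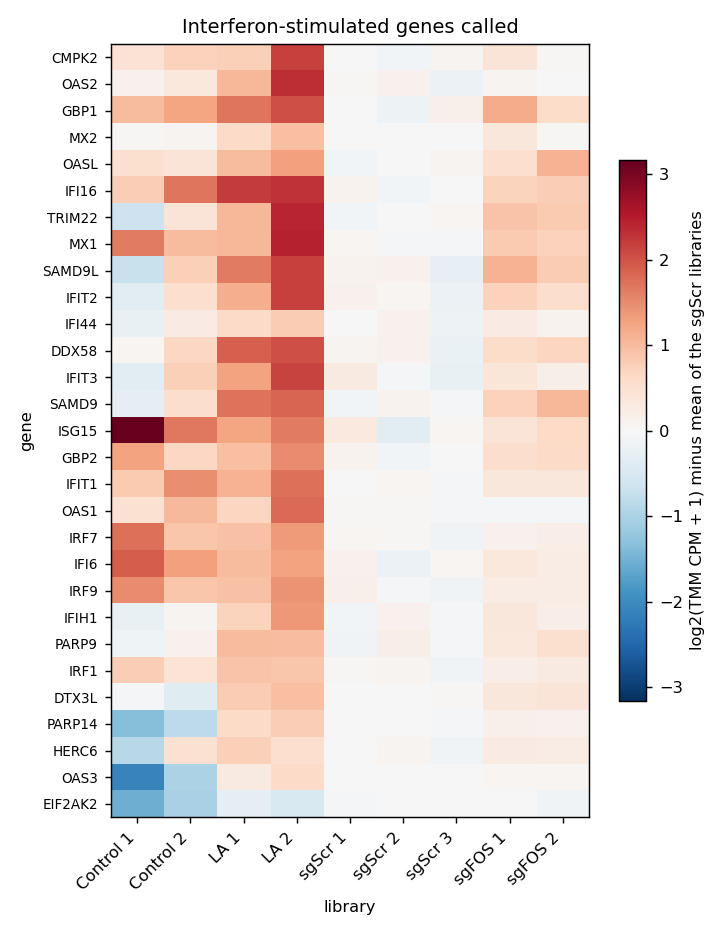
Log2(CPM + 1) of the called interferon-stimulated genes (rows) in each of the 9 libraries (columns), less the mean of the sgScr libraries (colour, log2 units). The 28 genes lower in sgScr are above the sgScr mean in both LA libraries, and *EIF2AK2* is below it.

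Cytokines and chemokines, which signal between cells, were mostly called in the lower direction. Of 25 tested, 12 were lower and 2 higher, with a median of -1.04, 56.0% called beside 22.9% of all genes. Without an sgScr library 2 to 4 were lower. The chemokine gene *CXCL1* was at 149 and 425 CPM in LA and 35.4, 33.3 and 36.8 CPM in sgScr (log2 fold change -3.05, SE 0.41, edgeR adjusted p = 0.00672). *CCL2*, a monocyte attractant, was at 66.4 and 271 CPM in LA and 28.8, 24.5 and 25.2 CPM in sgScr (log2 fold change -2.71, SE 0.53, edgeR adjusted p = 0.0193). *TNFSF15*, a TNF superfamily ligand, was at 37.0 and 198 CPM in LA and 5.66, 5.34 and 5.74 CPM in sgScr (log2 fold change -4.42, SE 0.67, edgeR adjusted p = 0.00975). All 3 had sgScr libraries below both LA libraries, and LA replicate 2 was the highest. *IL6* and *CXCL8* were lower as well (-4.83 and -2.03), whereas *CX3CL1* and *CXCL6* were higher (4.04 and 3.07). With a filter of 50 mean counts, 0 members of the list were called higher and 10 lower. Of 24 NF-kappa B and TNF response genes, 1 was higher and 4 were lower (median -0.202), 20.8% called beside 22.9% of all genes. That median was 0.143 without LA replicate 2. The NF-kappa B cofactor *NFKBIZ* and the mitochondrial superoxide dismutase *SOD2* were lower (-1.27 and -1.17) and the apoptosis inhibitor *BIRC3* was higher (0.75). Of 17 MHC class I and peptide loading genes, 4 were higher and 6 lower (median 0.011), 58.8% called. Without an sgScr library 1 was called each way. The proteasome subunit *PSMB9* was higher (1.54), while the MHC class I activator *NLRC5* and the peptidase *ERAP2* were lower (-1.57 and -1.08).

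Cholesterol and fatty acid synthesis genes were also called mostly lower in sgScr. Of 32 tested, 16 were lower and 1 higher (median -0.553), 53.1% called beside 22.9% of all genes. *SCD*, which encodes the desaturase that makes oleate, was at 1173 and 2587 CPM in LA and 821, 819 and 823 CPM in sgScr (log2 fold change -1.22, SE 0.30, edgeR adjusted p = 0.0353). The methylsterol oxidase gene *MSMO1* was at 67.2 and 86.4 CPM in LA and 36.0, 34.5 and 35.2 CPM in sgScr (log2 fold change -1.15, SE 0.12, edgeR adjusted p = 0.004). All sgScr libraries lay below both LA libraries in this pair. The summed level was 6490 and 8821 CPM in LA, 4559 to 4652 CPM in sgScr and 3395 and 3542 CPM in Control. Between 10 and 19 members were lower in the other alternatives, and 3 to 27 without 1 library. Hepatic-type secretory genes had 7 of 17 lower (median -0.584), 41.2% called, and 3 without an sgScr library. Those lower were led by *CPS1*, the complement factor gene *CFB* (-2.85) and the vitronectin gene *VTN* (-2.42).

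Genes of the translation and respiration machinery were called mostly higher in sgScr. Of 74 cytosolic ribosomal protein genes, 53 were higher (median 0.63), beside 10.5% higher among all genes. *RPL35A* was at 90.6 and 78.1 CPM in LA and 191, 198 and 204 CPM in sgScr (log2 fold change 1.21, SE 0.10, edgeR adjusted p = 0.00211). *RPL41* was at 284 and 309 CPM in LA and 653, 686 and 671 CPM in sgScr and *RPL37* at 154 and 139.5 CPM in LA and 320.4, 324 and 334 CPM in sgScr (log2 fold change 1.16 and 1.13). The sgScr libraries were above both LA libraries in all 3. Summed over the list, LA held 33850 and 27883 CPM, sgScr 47238 to 48818 CPM and Control 164070 and 88884 CPM. Of 73 nuclear-encoded respiratory chain subunits, 39 were higher and 2 lower (median 0.411), 56.2% called beside 22.9% of all genes. Those higher were led by the complex I genes *NDUFA3* (1.13) and *NDUFS6* (1.03) and the ATP synthase gene *ATP5I* (0.98). In the fit to all 9 libraries 6 subunits were higher, with the replicate block 9, and without an sgScr library 2 to 4. Ribosomal protein genes have processed copies across the genome, and how reads were divided among them is not given, so each gene is uncertain. In a fit to all 9 libraries 17 ribosomal genes were called, and up to 60 over the alternatives that left out no library. The number was 12 to 15 without an sgScr library.

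Transcript length moved weakly with the comparison, and GC content moved in opposite directions against the 2 LA replicates. With genes cut into 5 equal bins by length, the shortest bin, up to 2112 bases, had a median log2 fold change of 0.086, with 15.9% called higher and 9.21% lower, and the longest bin had -0.058, with 8.28% and 16.0%. Spearman's rho of the fold change was -0.0851 with length and -0.0689 with GC, over 13781 genes that share libraries. Between the LA replicates the ratio of replicate 1 to 2 had a rho of -0.437 with GC. The ratio of sgScr replicate 1 to LA replicate 1 had a rho of 0.171 with GC, and that to LA replicate 2 had -0.227. With genes cut into bins by GC, the highest bin had a median log2 fold change of -0.123 and the others -0.016 to 0.022. The part of these properties in the gene lists was not tested beyond a fit with a length and GC correction, which called 2113 genes higher and 1817 lower.

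Of 62 G2 and M phase genes, 15 were higher (median 0.455), beside 10.5% higher among all genes. *SPC24*, a kinetochore subunit, *UBE2C*, a ubiquitin-conjugating enzyme of mitosis, and *NCAPD2*, a condensin subunit, were higher (1.24, 0.91 and 0.94). In 40 of the 62 every sgScr library lay above both LA libraries (29.4% of all genes) and in 19 all lay between them (19.6% of all genes). Their summed level was 9095 and 5538 CPM in LA, so the LA replicates themselves stood apart, against 9757 to 9875 CPM in sgScr. Without LA replicate 1, 61 were called higher, without LA replicate 2, 31 higher and 13 lower, and the list lost its calls without an sgScr library. Of 56 S phase and replication genes, 7 were higher and 2 lower (median 0.245), 16.1% called beside 22.9% of all genes, with *GINS1* and *POLD2*, both of the replication machinery, higher (0.70 and 0.67) and the transcription factor *E2F1* lower (-0.64). In the fit to all 9 libraries 1 S phase gene was called, and the calls were lost with the replicate block and without an sgScr library.

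Stress response lists held more members higher than lower, and the counts fell in each when an sgScr library was left out. Of 20 heat shock genes, 7 were higher and 1 lower (median 0.546), 40.0% called beside 22.9% of all genes, and 4 were higher without an sgScr library. The chaperone genes *HSPA1A* and *HSPA1B* are near-identical copies and each is uncertain. *HSPA1A* was at 322 and 251 CPM in LA and 934, 971 and 1050.4 CPM in sgScr (log2 fold change 1.76, SE 0.14, edgeR adjusted p = 0.00183). *AHSA1*, a cochaperone of HSP90, was also higher (0.97). Of 39 unfolded protein and ATF4 response genes, 14 were higher and 2 lower (median 0.119), 41.0% called. Without an sgScr library 4 or 5 were higher. The endoplasmic reticulum disulfide isomerase *PDIA4* (1.03) and the mTOR inhibitor *DDIT4* (1.49) were higher, and the lipoprotein receptor *VLDLR* (-1.96) was lower. Of 38 glycolysis and hypoxia genes, 13 were higher and 2 lower (median 0.258), 39.5% called. Without an sgScr library 2 or 3 were higher. The lipase inhibitor *ANGPTL4* and the collagen hydroxylase *P4HA1* were higher (1.73 and 1.27), and the glycolysis regulator *PFKFB4* was lower (-1.74). Of 39 NRF2 and xenobiotic genes, 8 were higher and 5 lower (median 0.103), 33.3% called beside 22.9% of all genes. The counts were 7 and 8 when scaled by library size alone and 3 and 3 in the fit to all 9 libraries. Without an sgScr library 1 was higher. The aldose reductase gene *AKR1B1* was lower (-2.45), as was *UGT1A6* (-3.39), which shares exons with the other genes of its cluster.

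Adhesion, matrix and lineage genes held large differences in both directions, and their list counts fell when an sgScr library was left out. *CDH2*, which encodes N-cadherin, was at 80.3 and 60.8 CPM in LA and 5.57, 5.44 and 6.37 CPM in sgScr (log2 fold change -3.63, SE 0.16, edgeR adjusted p = 0.000352). Both LA libraries lay above every other library, Control included (11.9 and 14.3 CPM). Of 23 EMT regulators and junction genes, 4 were higher and 4 lower (median 0.138), 34.8% called beside 22.9% of all genes. Without an sgScr library 1 was lower. The desmosome gene *PKP2* was lower (-1.01). Of 39 collagens and matrix genes, 5 were higher and 13 lower (median -0.501), 46.2% called beside 22.9% of all genes. Without an sgScr library 1 to 5 were lower, and without LA replicate 2 the median was -0.119. The basement membrane gene *NID2* was at 31.2 and 117 CPM in LA and 4.52, 4.66 and 4.65 CPM in sgScr (log2 fold change -4.03, SE 0.54, edgeR adjusted p = 0.00686). *SPARC*, a collagen-binding protein gene, and *NID1* were also lower (-2.37 and -1.45). Of 18 matrix metalloproteinases and inhibitors, 6 were higher and 4 lower (median 0.159), 55.6% called. Without an sgScr library 2 were higher and 1 lower. The gelatinase gene *MMP2* and matrilysin gene *MMP7* were higher (2.39 and 1.43) and the inhibitor *TIMP4* was lower (-1.45). Of 33 genes of the TGF-beta, YAP and TEAD axis, 3 were higher and 8 lower (median -0.352), 33.3% called. Without an sgScr library 1 or 2 were lower. *LTBP2*, a gene of the LTBP family, and the LIM-domain gene *AJUBA* were lower (-1.82 and -1.05) and the BMP target *ID3* higher (1.06).

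Of 21 mucins and secretory genes, 7 were higher and 6 lower (median -0.137), 61.9% called beside 22.9% of all genes. Without an sgScr library 2 to 5 were higher and 1 or 2 lower. *MUC1*, a membrane mucin, was at 15.8 and 92.8 CPM in LA and 4.9, 5.34 and 4.88 CPM in sgScr (log2 fold change -3.45, SE 0.68, edgeR adjusted p = 0.0198). Its sgScr libraries lay below both LA libraries, the reverse of the pair *CEACAM5* and *CEACAM6*, which belong to the same list. Of 18 lung and endoderm lineage genes, 3 were higher and 3 lower (median -0.115), 33.3% called. Without an sgScr library 1 was higher. *SOX2*, a progenitor transcription factor, was at 0.184 and 0.726 CPM in LA and 8.33, 7.77 and 8.44 CPM in sgScr (log2 fold change 4.10, SE 0.43, edgeR adjusted p = 0.00354). The sgScr libraries were all higher. *GATA6* and *FOXP1*, transcription factors of lung development, were lower (-1.53 and -1.49). Of 13 epithelial keratins, 23.1% were called, close to the 22.9% of all genes. Of these, 1 was higher (*KRT10*, 1.11) and 2 lower (*KRT81*, -1.05, and *KRT86*, -2.15), and the loci of this last pair overlap. The keratin median, -0.104, ran from -0.652 with a mean of at least 50 counts to 0.058 in the fit to all 9 libraries. With 1 library left out it ran from -0.467 without sgScr replicate 2 to 0.553 without LA replicate 2.

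AP-1 and immediate-early genes, which include *FOS* itself, were mixed. Of 32 tested, 4 were higher and 11 lower (median -0.175), 46.9% called beside 22.9% of all genes. Without an sgScr library 1 was higher and 2 lower. The nuclear receptor *NR4A3* was at 3.19 and 12.5 CPM in LA and 1.14, 1.26 and 1.84 CPM in sgScr (log2 fold change -2.51, SE 0.58, edgeR adjusted p = 0.03), and *CTGF*, a matricellular protein gene, was lower (-1.47). The antiproliferative gene *BTG2* was higher (1.86), and *JUN*, a partner of FOS, was at 77.8 and 55.3 CPM in LA and 141, 141 and 149 CPM in sgScr (log2 fold change 1.09, SE 0.15, edgeR adjusted p = 0.00796). The sgScr libraries were the higher group for *JUN*. *EGR1*, an early response transcription factor, was at 171 and 54.3 CPM in LA and 247, 256 and 235 CPM in sgScr and was not called (log2 fold change 1.11, SE 0.44, edgeR adjusted p = 0.115). Of 18 MAPK feedback inhibitors, 2 were higher and 3 lower (median -0.008), 27.8% called beside 22.9% of all genes, with the phosphatase *DUSP5* and the Ras inhibitor *SPRED3* lower (-1.11 and -1.31) and *SPRY4* higher (0.52). The calls of that list were lost without an sgScr library, and its median was 0.335 without LA replicate 2. Of 12 ERBB family genes and ligands, 1 was higher and 5 were lower (median -0.384), beside 10.5% higher and 12.4% lower among all genes. These ERBB calls were also lost without an sgScr library. The ligand *TGFA* was at 16.1 and 42.2 CPM in LA and 8.28, 6.12 and 6.6 CPM in sgScr (log2 fold change -2.08, SE 0.40, edgeR adjusted p = 0.0179), the ligand *HBEGF* was lower (-1.17) and *NRG2* was higher (2.28). The direction of the AP-1 list turned without LA replicate 1, where its median was 0.068, and with the replicate block (0.113) and voom (0.104).

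For 18 genes with the largest changes elsewhere in the series, 4 were higher and 7 lower (median -0.396), 61.1% called beside 22.9% of all genes. The counts were 4 higher and 1 or 2 lower without an sgScr library. These genes were chosen on results of these libraries, so their count is not independent evidence. The sgFOS comparison uses the same sgScr libraries, so the log2 fold changes are given side by side, sgScr over LA and then sgFOS over sgScr, with no test between them. *OLR1*, a scavenger receptor gene, was at 9.7 and 64.5 CPM in LA and 1.81, 2.67 and 1.95 CPM in sgScr (log2 fold change -4.13, SE 0.77, edgeR adjusted p = 0.0172), and 1.27 in sgFOS over sgScr. *CPA4*, a carboxypeptidase gene, was at -2.59 and 2.03. *CD70*, a TNF superfamily ligand, was at -2.35 and 1.32. *MUC5AC*, a secreted mucin, was at -2.03 and -1.39. *H19*, an imprinted long noncoding RNA, was at 4.03 and -1.22. The neuropeptide gene *NTS* was at 2.76 and -0.75, and the urothelial gene *UPK1B* at 2.27 and 0.04. *NR4A2* was at -0.92 and -1.19 and *EGFR* at -0.96 and 0.12, both called against LA. *FOSB*, a FOS relative, was at -0.42 and -1.54, *IL32* at 0.21 and 1.31, and *ABCA12* at -0.45 and 1.25, none of them called against LA. *ANKRD36BP1* and *ZBED6* had values of -0.38 and 0.24 against LA and were not called either.

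Of a list of 31 genes chosen on 2p, the arm that holds the breakpoints, 27 were tested and 3 were higher and 5 lower (median -0.073), 29.6% called beside 22.9% of all genes, with the transcription cofactor *LBH* and the hypoxia factor *EPAS1* lower (-2.18 and -1.04) and the kinase *PKDCC* higher (0.85). Without an sgScr library 1 or 2 of the list were lower. By chromosome, the share called ran from 17.5% on chromosome 13 to 27.1% on chromosome 21, and the median fold change from -0.125 on chromosome 9 to 0.043 on chromosome 12. Among windows of 50 neighbouring genes averaging 50 counts or more, the lowest of chromosome 9 ran from *PTPRD* to *UBAP1* (8314246 to 34252521). Its median was -0.409, with 24 of the 50 genes called lower and 1 called higher, beside 12.4% and 10.5% of all genes. Relative to the sgScr mean, the median level there was 0.474 and 0.272 log2 units higher in LA replicates 1 and 2, and -0.481 and -0.019 in Control. On chromosome 12 the highest window, *CBX5* to *LRP1* (54624726 to 57607144), had a median of 0.341. In it, 22 of the 50 genes were called higher and 1 lower, beside 10.5% and 12.4% of all genes. LA stood there at -0.333 and -0.368. The windows were picked as the most extreme, so they are a description. Of 16 nuclear and intron-rich RNA signs, 12.5% were called beside 22.9% of all genes (median -0.064). The 2 called were lower, the nuclear long noncoding RNAs *NEAT1* (-1.37) and *MALAT1* (-1.11). Their part in the results was not tested.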

How the data were processed

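The authors deposited 1 table of raw read counts per gene for 9 libraries of A549 cells. Per the labels' processing notes, reads were aligned with STAR 2.7.10b to hg19 and tested with DESeq2 1.26.0. The counting program and strand setting are not given in the sources used here. Genes were placed by the GENCODE annotation for GRCh37, and 740 tested genes without an autosomal position were left out of the text. From these counts, edgeR 4.0.16 (R 4.3.3) scaled libraries by TMM, dropped low genes with filterByExpr, and fitted a quasi-likelihood test to the 2 LA and 3 sgScr libraries. P-values were adjusted by Benjamini-Hochberg over all 14521 genes tested, and under 0.05 is called. Lists are described by counts of called members and medians. Standard errors are in log2 units. A gene with no reads in a group was given a floor of 3 counts in each of its libraries.

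Named genes were the fusion genes and *FOS*, the 8 largest called changes each way without overlap (mean of at least 50 counts), up to 3 called members of each list with that mean, the genes silent in 1 group, and those with the largest changes elsewhere in the series. *DDX58*, *IFIT1*, *ISG15*, *EIF2AK2*, *STAT2*, *IL6*, *CXCL8*, *CX3CL1*, *CXCL6* and *JUN* were named after their values were seen. Some genes that the rule names are not reported here. The members and lists were chosen with earlier results of these data known. Depth was 14507228 to 20456341 reads, and intervals cover counting error only. Alternatives were DESeq2 1.42.0, DESeq2 size factors, library-size or upper-quartile scaling, no filter or a mean of 50 counts, all 9 libraries, a replicate block, a length and GC correction (loess span 0.5), limma 3.58.1 voom with group weights, and leaving out each library. The fit was tested on simulated counts, with a single spread and with a separate spread for each group, and in the latter its share of false calls was above the nominal level.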

Additional observations from a re-analysis of the deposited data

How the results depend on the processing

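Compared with 1441 genes higher and 1710 lower in sgScr, a fit to all 9 libraries called 526 and 831, limma voom with group weights 684 and 1026, and a log2 fold change beyond 1 left 347 and 836. Over 11372 genes, the difference between replicates 1 and 2 in LA and that in sgScr had a correlation of r = -0.0191. Replicates 1 and 2 of sgScr differed little (median absolute log2 ratio 0.0616), so this value cannot tell whether same-numbered replicates were paired. With the replicate number as a block the counts were 469 and 683, and 736 and 726 with the block and a length and GC correction together. Leaving out 1 library gave 148 to 4683 higher and 204 to 4737 lower, lowest without an sgScr library and highest without LA replicate 1. Counts under DESeq2, other scalings, other filters and the length and GC correction stayed within 1.5 times. The cause of these shifts was not tested.

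The AP-1 list median turned from -0.175 to 0.113 with the replicate block, 0.119 with block and correction and 0.104 with voom, and ran from -0.326 to 0.068 with 1 library left out. Over the same leave-outs, the 2p median ran from -0.093 to 0.094, S phase genes from -0.004 to 0.508, EMT genes from -0.029 to 0.146, lung and endoderm genes from -0.16 to 0.029 and fibroblast markers from -1.071 to 0.484, while *FOS* ran from -0.76 to 1.10 and *FOSB* from -1.24 to 1.82. Among the leave-outs, the positive values of *FOS*, *FOSB*, the AP-1 list and the 2p list came without LA replicate 1. With the block or voom, *FOS* and *FOSB* were also positive, up to 0.17 and 0.48, and not called. The lung and endoderm median was 0.018 with the length and GC correction and 0.01 with the block as well, and the fibroblast median 0.358 with a mean of at least 50 counts. Of 114 named genes tested, *FOS* and some others had no call to lose. The call was lost by 12 in the fit to all 9 libraries, 11 with voom and 11 with the block. It was lost by 48 to 58 when an sgScr library was left out. Depth limits genes with few reads, *ALK* and *LOC388942* among them.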
